A study of Mus musculus with 2 samples.

Results

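The semaphorin, ephrin, Slit and netrin families and their receptors were followed in the mouse cerebellum at postnatal day 7. RNA pulled down with tagged Purkinje cell ribosomes was set against the RNA that was not pulled down. Members were all genes whose annotated symbol belongs to the semaphorins (Sema3 to Sema7), plexins, neuropilins, ephrins, Eph receptors, Slits, Robos, netrins, netrin-Gs, Unc5 receptors or Dcc, taken from probe sets that name 1 gene. This gave 69 genes of 19503 measured, 36 of them ligands and 33 receptors. Ephb2 and Ntng2 also match by name and were not analysed here.

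The mice carry the transgene Tg(Pcp2-L10a-Egfp), in which the Purkinje cell promoter Pcp2 directs a ribosomal protein fused to green fluorescent protein. Antibodies against the tag pull down the tagged ribosomes with their mRNA (translating ribosome affinity purification, TRAP), and the RNA that stays in solution forms the unbound fraction. Both fractions come from pooled cerebella of transgenic mice of this age, and neither is an untagged control. There was 1 array per fraction, so no difference has a replicate check, no test was run, and the number of arrays limits the precision. The number of animals in a pool is not given in the sources used here.

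These families steer growing axons and migrating neurons. Semaphorins act through plexins, with neuropilins as co-receptors for most of the secreted ones. Ephrins on one cell bind Eph receptors on another, and both sides can signal. Slits repel axons through Robo receptors, and netrins attract through Dcc or repel through Unc5 receptors. In the developing cerebellum they take part in granule cell migration, in the patterning of Purkinje cells and in the refinement of the climbing fibres that reach them.

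Values are log2 expression values per gene, and every difference is the TRAP value minus the unbound value. A level was called above the floor when it exceeded 7.08, the pooled median of both arrays over every probe set. The table has no detection calls, so this floor is a convention and not a measured background. A gene was called at least 2-fold apart when the difference was 1 or more in size and its higher array was above the floor. Where a gene had several different probe sets, their differences spread by a median SD of 0.14 over 531 genes with a mean level above the floor. That spread is within the same arrays and does not include the spread between samples.

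Pcp2 itself read 12.98 in TRAP against 11.65 in unbound, so the unbound fraction still held Purkinje cell RNA. Of 13 measured Purkinje cell markers, 12 read higher in TRAP and 6 reached 2-fold, and their summed linear signal was 63859 in TRAP and 33225 in unbound. The exception was Cbln1, a synaptic organiser that granule cells make, at -1.69. Markers of other cells mostly read higher in unbound, with Hopx, a gene of Bergmann glia, the other way at 10.36 in TRAP and 9.42 in unbound. At least 2-fold higher there were 11 of 12 markers of granule neurons (summed signal 10545 in TRAP and 32590 in unbound), 6 of 11 of granule neuron progenitors (6276 and 14713), 5 of 9 of inhibitory interneurons (8816 and 6519), 9 of 12 of astrocytes and Bergmann glia (8468 and 21002), 10 of 11 of the oligodendrocyte lineage (2273 and 8284), 3 of 11 of vascular and mural cells (955 and 2225), 2 of 10 of microglia (652 and 1123), and 2 of 6 of choroid plexus (1131 and 8071). For comparison, such calls took in 10.0% of the 19503 genes in unbound and 4.37% in TRAP. With only genes above the floor on at least 1 array counted, the shares were 18.6% and 8.11%. For 7 of the 11 vascular and mural markers and 7 of the 10 microglial markers, neither array was above the floor. Their counts therefore rest on 4 and 3 genes. The interneuron sum was carried by Pvalb, which Purkinje cells also express, with 12.91 in TRAP and 11.24 in unbound. The defining markers Gabra6 (granule neurons) and Gfap (astrocytes) still read 7.71 and 7.23 in TRAP, against 10.49 and 11.14 in unbound. The part of these cell types in each guidance gene's value was not tested. Which cells made an RNA and how much of it sat on tagged ribosomes cannot be told apart in such samples.

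Guidance genes read higher in unbound more often than in TRAP. Of the 69 members, 17 were at least 2-fold higher in unbound, or 24.6%, where 10.0% of all measured genes were. In TRAP, 2 members were at least 2-fold higher, or 2.90%, where 4.37% of all genes were. Neither array was above the floor for 26 members. Of the 43 others, 17 had 1 array at or below the floor and 26 had both above it. Among all genes above the floor on at least 1 array, 18.6% were called higher in unbound and 8.11% in TRAP. The like counts for members are 17 and 2 of these 43. The TRAP value lay at or below the floor for 9 of the 17, so their folds are uncertain. With the median of each array subtracted, which adds 0.33 to every difference, the counts were 13 in unbound and 5 in TRAP, against 6.23% and 8.83% of all genes.

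Receptors made up 10 of the 17 genes higher in unbound and ligands 7, and both genes higher in TRAP were ligands. The unbound calls were 30.3% of the 33 receptor genes and 19.4% of the 36 ligand genes, where 10.0% of all measured genes were called. The TRAP calls were 5.56% of the ligand genes, where 4.37% of all measured genes were called. The TRAP value lay at or below the floor in 7 of the 10 receptors and 2 of the 7 ligands, so those folds are uncertain. Over the 18 ligand genes with a mean level above the floor the median difference was -0.52, and over the 16 such receptor genes it was -0.77. The same median over all 9734 genes with a mean level above the floor was -0.10. The ligands ran from -2.03 to 1.17 and the receptors from -2.41 to 0.83, so the ranges lay over each other for most of their length. Both medians stayed below 0 under the other 3 scalings of the arrays. When the floor was raised to the 75th percentile, the 3 ligand genes left (Sema7a, Sema4g and Sema6a) had a median of 1.15.

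**Figure D1:**
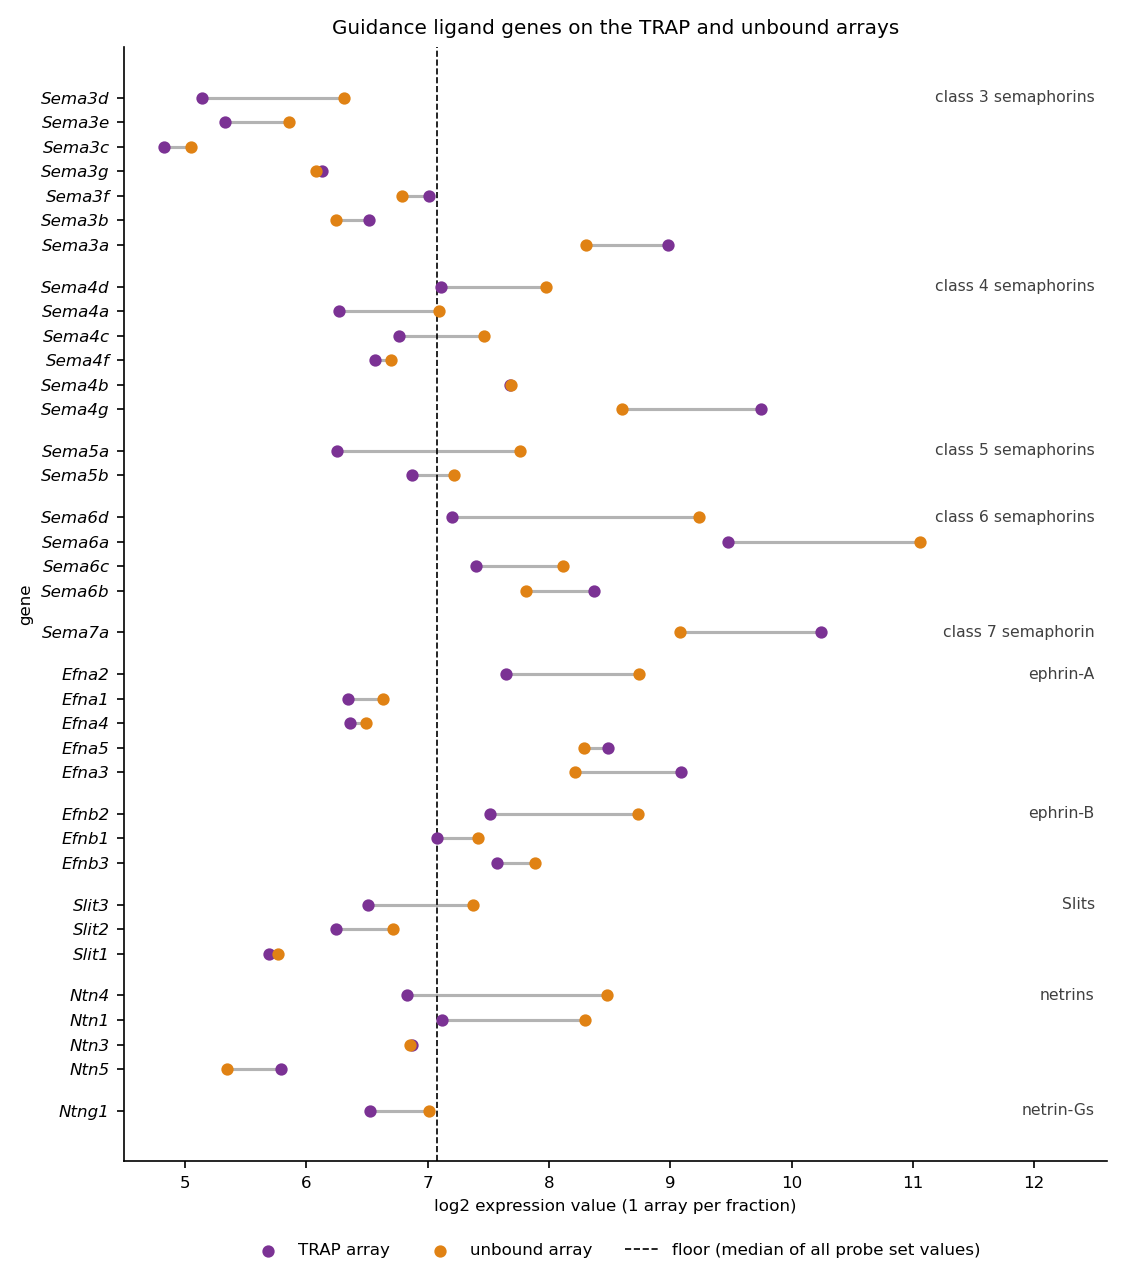
Log2 expression value of each of the 36 ligand genes on the TRAP array (purple) and the unbound array (orange), 1 array each, joined by a line and grouped by family; the dashed line is the floor of 7.08. Sema7a and Sema4g lie farther right on the TRAP array, Sema6a and Sema6d on the unbound array, and 14 genes have both points left of the floor.

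Among the semaphorins, the 2 members at least 2-fold higher in TRAP were Sema7a and Sema4g. Sema7a, a semaphorin held on the membrane by a lipid anchor and known from the pruning of climbing fibres, read 10.24 in TRAP and 9.08 in unbound, 2.24-fold apart. Sema4g, a transmembrane ligand of plexin-B2, read 9.75 in TRAP and 8.60 in unbound, 2.21-fold apart. All 4 of these values lay above the floor, and both genes stayed at least 2-fold higher in TRAP under each other scaling. Across all genes, 97.0% had a lower difference than Sema7a and 96.8% a lower one than Sema4g.

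The RefSeq sequence around the start of both genes is shown because they were the only members called higher in TRAP, beside that of Plxnc1, the plexin that binds Sema7a and was called higher in unbound. Each window runs 5′ to 3′ from 250 bases before to 50 bases after the annotated start, on build GRCm38.p6, at chr9:57939862-57940161 on the plus strand for Sema7a, chr19:44989094-44989393 on the plus strand for Sema4g and chr10:94944796-94945095 on the minus strand for Plxnc1. Capitals mark CAGCTG, 1 form of the E-box (CANNTG), a binding site of basic helix-loop-helix factors. CAGCTG reads the same on both strands, and other forms were not searched.
Sema7a: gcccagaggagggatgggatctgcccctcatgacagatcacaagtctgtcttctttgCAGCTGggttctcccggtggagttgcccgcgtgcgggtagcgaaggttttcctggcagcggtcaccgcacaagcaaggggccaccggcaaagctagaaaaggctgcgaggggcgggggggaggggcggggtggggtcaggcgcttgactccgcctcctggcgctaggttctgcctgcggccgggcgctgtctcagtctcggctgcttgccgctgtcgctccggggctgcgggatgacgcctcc
Sema4g: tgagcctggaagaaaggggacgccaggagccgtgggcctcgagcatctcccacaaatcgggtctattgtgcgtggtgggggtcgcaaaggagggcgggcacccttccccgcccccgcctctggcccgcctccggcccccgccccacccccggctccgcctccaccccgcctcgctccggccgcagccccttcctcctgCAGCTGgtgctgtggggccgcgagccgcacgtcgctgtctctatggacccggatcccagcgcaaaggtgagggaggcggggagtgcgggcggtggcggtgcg
Plxnc1: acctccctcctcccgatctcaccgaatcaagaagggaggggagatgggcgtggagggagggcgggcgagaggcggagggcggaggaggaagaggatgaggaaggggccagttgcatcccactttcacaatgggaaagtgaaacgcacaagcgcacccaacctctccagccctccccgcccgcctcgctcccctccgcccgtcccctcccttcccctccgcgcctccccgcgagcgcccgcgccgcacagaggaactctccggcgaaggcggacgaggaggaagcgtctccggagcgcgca
CAGCTG stands at -193 from the start in Sema7a and at -52 in Sema4g. These letters are not in the window of Plxnc1, which holds another E-box form, CAGTTG. It was found in 16.3% of all 32851 windows of this length and in 16.0% of the 75 windows of the 59 members that have one. None of the 16 windows of the 14 members called higher in unbound with a window held it. The letters AGGTCA, the half-site of ROR receptors, and TATAAA, searched on both strands, were in none of the windows printed here and in 16.3% and 13.6% of all windows. Among the 75 member windows they were in 14.7% and 2.67%, and among the 16 windows of members called higher in unbound in 4 and in 1. The motifs overlap with no other in these windows, and a match of letters is not a binding site. The windows held 23, 30 and 30 CG dinucleotides in the order printed, where the median was 7 over all windows, 19 over the members' windows and 23.5 over those of members called higher in unbound.

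The transmembrane Sema6 genes differed among themselves. Sema6a, the ligand through which granule cell migration is guided, read 9.47 in TRAP and 11.06 in unbound, 2.99-fold apart. Sema6d, a ligand of A plexins, read 7.20 and 9.24, 4.10-fold apart. Sema6c read 7.40 in TRAP and 8.11 in unbound, short of 2-fold. Sema6b went the other way with 8.37 in TRAP and 7.81 in unbound, also short of 2-fold, and its 2 probe sets carry identical values. Under all 3 other scalings Sema6b stayed higher in TRAP and the other 3 Sema6 genes in unbound.

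Sema3 genes encode secreted ligands, and 1 of the 7 was above the floor. Sema3a, the founding repellent, which Purkinje cells are known to make, read 8.98 in TRAP and 8.30 in unbound, 1.60-fold apart. It reached 2-fold, at 1.01, with the array medians subtracted. Sema3b, Sema3c, Sema3d, Sema3e, Sema3f and Sema3g lay below the floor on both arrays. Of these, Sema3d was 2-fold apart by value, with 5.14 in TRAP and 6.31 in unbound, levels at which no call was made.

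Of the other Sema4 genes, none reached 2-fold. Sema4d, a ligand of plexin-B1, averaged 7.11 in TRAP and 7.98 in unbound, and its 2 probe sets disagreed in size, with differences of -0.48 and -1.26. Sema4a and Sema4c had differences of -0.83 and -0.70, with TRAP values of 6.27 and 6.76 below the floor. Sema4b read 7.68 and 7.69, equal within the spread between probe sets, and was above 0 under the other 3 scalings. Sema4f was below the floor on both arrays. The Sema5 genes, transmembrane proteins with thrombospondin repeats, both read higher in unbound. Sema5a read 6.25 in TRAP and 7.76 in unbound, 2.85-fold apart, and Sema5b 6.87 and 7.21. Both TRAP values lay below the floor, so the folds are uncertain.

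As deposited, semaphorin receptors all read lower in TRAP, a direction that Plxna4 lost under 2 other scalings. Each of the 11 plexin and neuropilin genes had a difference below 0, and in 5 of the 11 the unbound value was higher by 2-fold or more. These 5 are 45.5%, where 10.0% of all measured genes were called, and 8175 of all 19503 genes had a difference below 0. Neither array was above the floor for 3 of the 11 (Nrp1, Nrp2 and Plxnb3), so their direction is uncertain. After quantile normalization 10 of the 11 were below 0, with Plxna4 the exception, and the same held with the array medians subtracted. Of all 19503 genes, 8549 were below 0 after quantile normalization and 5267 with the array medians subtracted. The TRAP value of all 5 genes at 2-fold lay below the floor.

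**Figure D2:**
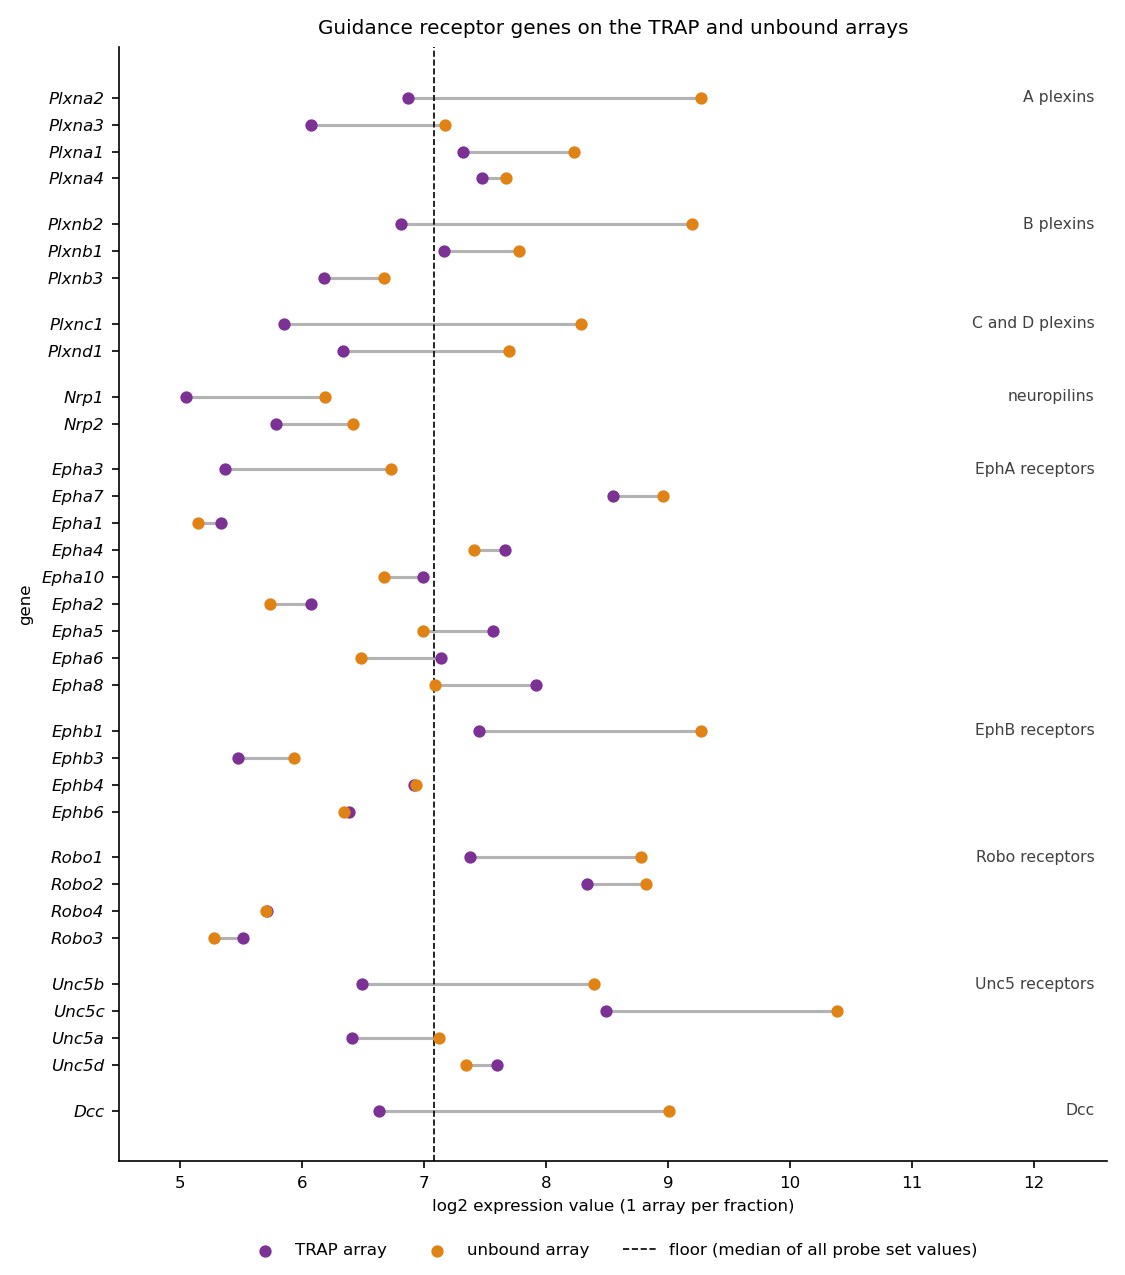
Log2 expression value of each of the 33 receptor genes on the TRAP array (purple) and the unbound array (orange), 1 array each, joined by a line and grouped by family; the dashed line is the floor of 7.08. Plexin and neuropilin points are farther right on the unbound array as deposited, which 2 other scalings turn for Plxna4, whereas 7 of the 9 EphA genes are farther right on the TRAP array.

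The A plexins receive Sema6 ligands directly and Sema3 ligands together with neuropilins. Plxna2, the receptor of Sema6a in migrating granule cells, read 6.87 in TRAP and 9.27 in unbound, 5.30-fold apart. Plxna1 read 7.32 and 8.23, and Plxna3 6.08 and 7.17. Plxna3 was 2.14-fold higher in unbound but fell short of 2-fold after quantile normalization and with the array medians subtracted. Plxna4, a receptor for Sema3a and Sema6a, had nearly equal values, 7.47 in TRAP and 7.67 in unbound. The 4 A plexins therefore spanned differences from -2.41 to -0.20.

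Plxnb2, a receptor of Sema4 ligands needed for granule cell progenitors, read 6.81 in TRAP and 9.20 in unbound, 5.23-fold apart. Its ligand gene Sema4g had the opposite sign. Plxnb1 read 7.16 and 7.78, and Plxnb3 lay below the floor on both arrays. Plxnc1, the plexin of Sema7a, read 5.86 in TRAP and 8.29 in unbound, 5.40-fold apart, an uncertain fold since the TRAP value lies far below the floor. Plxnd1, which binds Sema3e, read 6.34 and 7.70, 2.57-fold apart. Nrp1 and Nrp2, the co-receptors of secreted semaphorins, were below the floor on both arrays, with 5.05 and 6.19 for Nrp1 and 5.79 and 6.42 for Nrp2.

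Set side by side, ligand and receptor of a known pair took the same sign in some cases and opposite signs in others. Sema6a at -1.58 and Plxna2 at -2.41 were both higher in unbound. Ntn1 at -1.17 shared its sign with Dcc at -2.38, Unc5b at -1.91, Unc5c at -1.90 and Unc5a at -0.71, but not with Unc5d at 0.26. Sema7a at 1.17 and Plxnc1 at -2.43 were apart, and so were Sema4g at 1.15 and Plxnb2 at -2.39. Sema4c at -0.70 had the sign of Plxnb2, and Sema4d at -0.87 that of Plxnb1 at -0.62. Slit3 at -0.87 shared its sign with Robo1 at -1.39, and Efnb2 at -1.22 with Ephb1 at -1.82. Ephrin-A genes with a mean level above the floor ran from -1.09 to 0.88, and such EphA genes from -0.41 to 0.83. Sema3a stood at 0.68, and the A plexins that serve it ran from -2.41 to -0.20. Differences of ligand and receptor come from the same pair of arrays, and no test of the contrast between them was run.

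**Figure D3:**
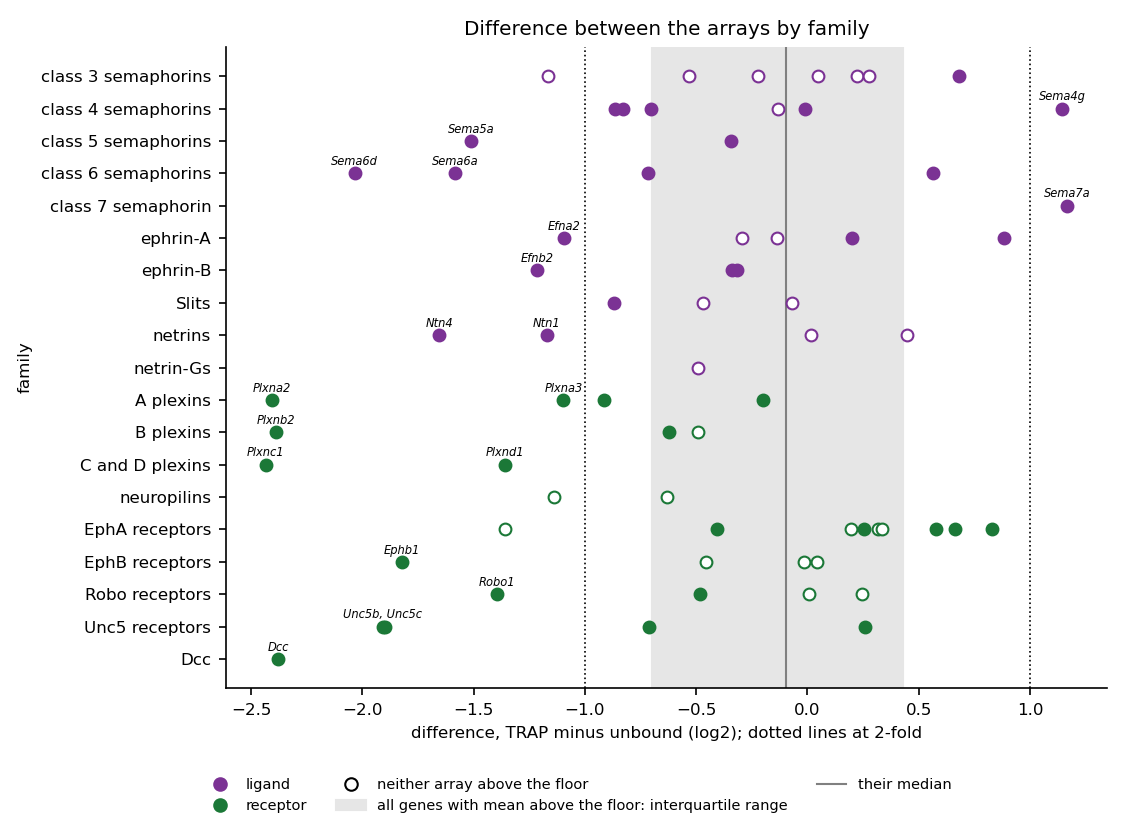
Difference between the arrays (TRAP minus unbound, log2) for each of the 69 members by family, with ligands in purple, receptors in green and open circles where neither array was above the floor; dotted lines mark 2-fold and the grey band the interquartile range of all genes with a mean level above the floor. Named genes are those at least 2-fold apart: 17 lie at the left and Sema7a and Sema4g at the right.

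EphA genes mostly read higher in TRAP by small amounts. Of 9 EphA genes, 7 had a difference above 0, also under the other 3 scalings, but none reached 2-fold as deposited. Across all genes 11239 of 19503 had a difference above 0, so such a count is not far from the rest of the table. Epha8 read 7.92 in TRAP and 7.09 in unbound, a difference of 0.83 that came to 2-fold or more under each other scaling. Epha5 read 7.57 and 6.99, Epha6 7.14 and 6.48, and Epha4 7.66 and 7.41. These are receptor tyrosine kinases that bind mainly the lipid-anchored ephrin-A ligands, and Epha4 also binds ephrin-B. Epha7 read 8.55 in TRAP and 8.96 in unbound, higher in unbound under every scaling.

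The other 4 EphA genes, averaged over their probe sets, were below the floor on both arrays, although 1 of the 2 probe sets of Epha10 read 7.33 in TRAP. Epha1, Epha2 and Epha10 had small differences of 0.19 to 0.33, and Epha3 read 5.37 in TRAP and 6.73 in unbound, with no call made at those levels. Of the EphB genes, whose products bind the transmembrane ephrin-B ligands, Ephb1 was above the floor. It read 7.45 in TRAP and 9.27 in unbound, 3.53-fold apart. Ephb3, Ephb4 and Ephb6 were below the floor on both arrays. Ephb1 at -1.82 lay under the EphA genes above the floor, which ran from -0.41 to 0.83.

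Ephrin genes were split. Efna3 read 9.09 in TRAP and 8.21 in unbound, 1.84-fold apart that reached 2-fold under each other scaling. Efna5, known from the mapping of retinal axons, read 8.49 and 8.29. Efna2 read 7.64 in TRAP and 8.74 in unbound, 2.13-fold higher in unbound. Each of the 3 is held on the membrane by a lipid anchor, and they did not share a direction. Efna1 and Efna4 were below the floor on both arrays.

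All 3 ephrin-B genes read higher in unbound as deposited, but 2 of them, Efnb1 and Efnb3, turned under another scaling. Efnb2, which is also known from arterial vessels, read 7.51 in TRAP and 8.73 in unbound, 2.32-fold apart. Efnb1 read 7.08 and 7.42, and Efnb3 7.57 and 7.89. Efnb3 turned positive with the array medians subtracted, and Efnb1 and Efnb3 did so after quantile normalization. Efna2 and Efnb2 fell short of 2-fold with the array medians subtracted, at -0.76 and -0.88, and after quantile normalization.

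Netrin signalling was the system with the most calls for its size: in 5 of its 9 genes the unbound value was at least 2-fold higher, and in none the TRAP value. That is 55.6%, where 10.0% of all measured genes and 18.6% of those above the floor on at least 1 array were called. In 3 of the 5 (Ntn4, Dcc and Unc5b) the TRAP value lay below the floor, so those folds are uncertain. Ntn1, the secreted netrin that attracts commissural axons, read 7.12 in TRAP and 8.29 in unbound, 2.25-fold apart. It fell short of 2-fold under each other scaling and after a trend on genomic span was removed. Ntn4, a netrin that binds laminin, read 6.83 and 8.48, 3.15-fold apart. Ntn3 and Ntn5 were below the floor on both arrays, and so was Ntng1, a lipid-anchored netrin-G that does not bind Dcc.

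Dcc, the attractive netrin receptor, read 6.63 in TRAP and 9.01 in unbound, 5.20-fold apart. Unc5c, whose loss causes the rostral cerebellar malformation of mutant mice, read 8.49 and 10.39, 3.73-fold apart with both values above the floor. Unc5b, also known from blood vessels, read 6.49 and 8.40, 3.75-fold apart. Unc5a read 6.41 and 7.12, short of 2-fold. Unc5d was the receptor of this group that read higher in TRAP, with 7.60 against 7.34, and its 2 probe sets gave 0.45 and 0.07. These 5 receptor genes thus ran from -2.38 to 0.26, with the sign of each the same under the other scalings.

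Slit and Robo genes had few levels above the floor. Robo1, a Slit receptor of migrating neurons and axons, read 7.38 in TRAP and 8.78 in unbound, 2.63-fold apart. Robo2 read 8.33 and 8.82, short of 2-fold. Robo3, which regulates midline crossing, and Robo4, known from endothelium, were below the floor on both arrays. Of the ligands, Slit3 read 6.51 in TRAP and 7.38 in unbound, and Slit1 and Slit2 were below the floor on both arrays.

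Over the 26 members below the floor after probe sets were averaged, levels ran from 4.82 to 7.01 and differences from -1.36 to 0.45. No order was read among these 14 ligand and 12 receptor genes. They were not counted as called, although 3 of them (Sema3d, Nrp1 and Epha3) were 2-fold apart by value, each lower in TRAP. With the brightest probe set in place of the average, 44 members and not 43 were above the floor.

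Genomic span was set beside the differences. Its median was 69.0 kb over all 33 receptor genes, 34.4 kb over all 36 ligand genes and 18.0 kb over all genes with a span. Over those with a mean level above the floor it was 280 kb for 16 receptor genes, 31.5 kb for 18 ligand genes and 25.4 kb for all genes. Across the 34 members the Spearman correlation of span with difference was -0.29, and across 9729 genes it was -0.24. Genes are not independent replicates, and all points share the same 2 arrays. With a smooth trend on span removed from all genes, the ligand median was -0.58 and the receptor median -0.71, and 16 members were called higher in unbound and 2 in TRAP.

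Signalling partners of these receptors, both cytoplasmic proteins and membrane proteins such as Itgb1 and Adam10, held genes at both ends. Of 22 measured effectors of semaphorin and plexin signalling, 6 were at least 2-fold apart, 3 in each direction, or 13.6% each way, where 10.0% of all measured genes were called in unbound and 4.37% in TRAP, and 18.6% and 8.11% of those above the floor on at least 1 array. Rnd1, a GTPase that binds plexins, read 9.13 in TRAP and 7.61 in unbound, and Cdk5, a neuronal kinase, read 11.59 and 10.17. Itgb1, the integrin subunit through which Sema7a also acts, read 6.77 and 8.62, and the small GTPase gene Rras 7.68 and 9.45. The TRAP value of Itgb1 lay below the floor. The median over the 19 effectors with a mean level above the floor was -0.14, and 0.19 with the array medians subtracted. Over all genes with such a level it was -0.10 and 0.23.

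**Figure D4:**
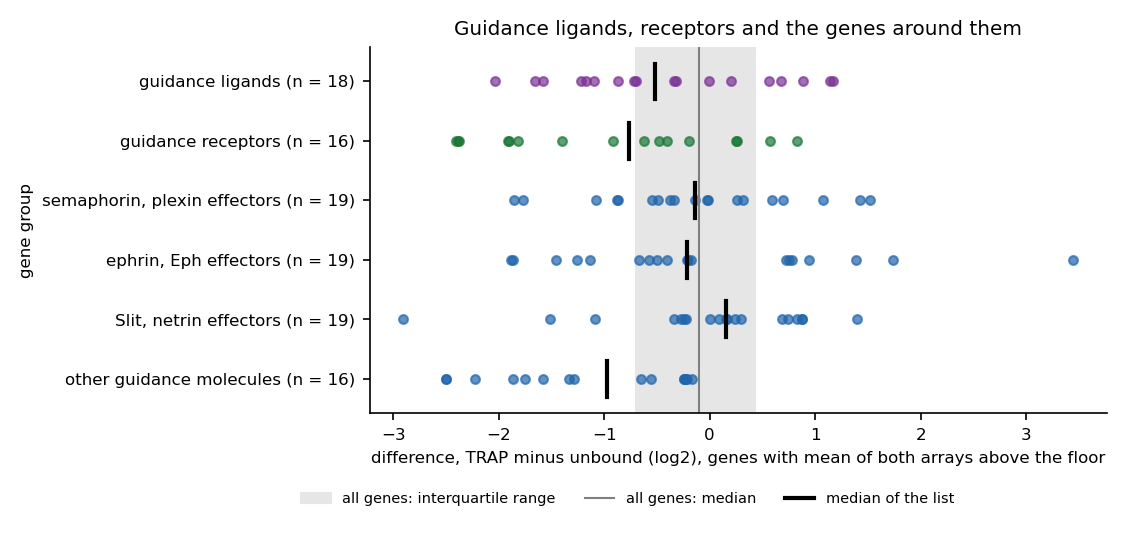
Difference between the arrays (TRAP minus unbound, log2) for guidance ligands, guidance receptors and 4 lists of related genes, each point a gene with a mean level above the floor; black bars are medians and the grey band is the interquartile range of all genes. The medians of the effector lists lie between -0.21 and 0.15, those of the guidance receptors and of the other guidance molecules at -0.77 and -0.97.

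For ephrin and Eph signalling, 8 of 19 effectors were at least 2-fold apart, 3 with the higher value in TRAP (15.8%) and 5 in unbound (26.3%). All 19 were above the floor on at least 1 array, and of all such genes 8.11% were called in TRAP and 18.6% in unbound. Kalrn, which encodes kalirin, an exchange factor that shapes spines, stood at 11.58 on the first array and 8.13 on the other, 10.9-fold apart. Vav3, another exchange factor, read 8.56 in TRAP and 6.82 in unbound, the unbound value below the floor. Adam10, a protease that cleaves ephrins, read 7.99 and 9.87, and Chn2, a Rac-inactivating chimaerin, 9.60 and 11.46. The median was -0.21, and 0.12 with the array medians subtracted and 0.14 after quantile normalization. In the same order, the median over all genes with a mean level above the floor was -0.10, 0.23 and 0.07.

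Of 19 effectors of Slit and netrin signalling, 4 were at least 2-fold apart, 1 with the higher value in TRAP (5.26%) and 3 in unbound (15.8%), shares below those of all genes above the floor. Srgap1, which couples Robo to Cdc42, read 11.44 in TRAP and 10.04 in unbound, whereas Dock1, a Rac activator downstream of Dcc, read 6.24 and 9.14. The TRAP value of Dock1 lay below the floor. Trim9, a ubiquitin ligase that binds Dcc, read 11.27 and 10.39, and Sos1, an exchange factor recruited by Robo, 8.40 and 9.91. The median was 0.15 and kept its sign under the other scalings.

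**Figure D5:**
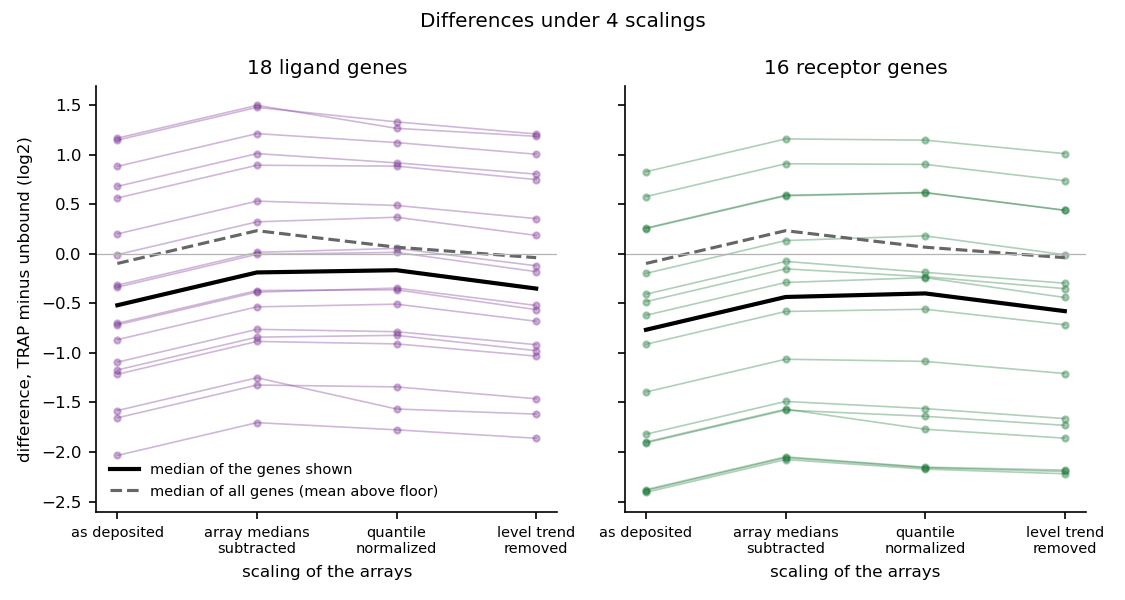
Differences (TRAP minus unbound, log2) of the 18 ligand and 16 receptor genes with a mean level above the floor under 4 scalings of the arrays; each thin line is a gene, the black line their median and the dashed line the median of all such genes. The ligand median moved from -0.52 as deposited to -0.19, -0.17 and -0.35 and the receptor median from -0.77 to -0.44, -0.40 and -0.58, both below the dashed line throughout.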

How the data were processed

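RNA of 1 TRAP and 1 unbound sample was hybridised to Affymetrix whole-transcript arrays. The deposited log2 values, 1 per probe set and array, are the authors' own; the submitters' processing notes name Affymetrix Power Tools. The tool's version, the normalization, the background correction and the log base are not stated. As natural logs the top value would mean a signal of 847885, above the 65535 a 16-bit scanner records, so log2 was assumed.

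Of 22097 probe sets, 20999 name 1 gene in the platform annotation, 91 name several and 1007 are unnamed here. Probe sets were averaged per gene and used without further scaling. Counts of genes at least 2-fold apart are over all measured genes, with the higher array above the floor; medians are over genes whose mean of both arrays is above it. All 69 members matched RefSeq genes of GRCm38.p6 by Entrez identifier, which gave genomic spans. Groups follow the sample titles.

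Members, the 13 gene lists (184 genes) and the rules were chosen with earlier results of these data known. A further list is not reported here. Every member could be named; of each list, the 2 highest and the 2 lowest members were eligible. Alternatives were 3 other scalings (array medians subtracted, quantile normalization, a loess trend on level with span 0.3 removed), a span trend, other floors, thresholds of 1.5-fold and 4-fold, the brightest probe set, and netrin-Gs left out. Motif searches and their letters were chosen after the values were known. Python 3.11.15, pandas 2.3.3 and statsmodels 0.14.6 were used, and scripts were tested on simulated data.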

Additional observations from a re-analysis of the deposited data

How the results depend on the processing

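With 1 array per fraction no replicate could be left out. No paired analysis was possible because each fraction has a single sample. A value counted as moved when it shifted by more than the median SD of 0.14 between probe sets, a count when it changed by over 1.5 times. The number of members at least 2-fold higher in unbound, 17, lay between 13 and 25 except with a floor at the 75th percentile, where it was 6, and at 4-fold, where it was 5. The number higher in TRAP, 2, was 5 with array medians subtracted, 4 after quantile normalization, 4 with the level trend removed, 6 at 1.5-fold and 0 at 4-fold. With the array medians subtracted, after quantile normalization and with the level trend removed, the ligand median was -0.19, -0.17 and -0.35, and the receptor median -0.44, -0.40 and -0.58. With no floor these medians were -0.33 and -0.49, and with the floor on the higher array -0.71 and -0.91. With the floor at the 75th percentile they were 1.15 over 3 ligands, the opposite sign, and -1.90 over 1 receptor. The brightest probe set per gene gave a receptor median of -0.62. Of the 19 members at least 2-fold apart, 15 stayed so in the same direction under the 3 scalings, the span trend and the brightest probe set; Efna2, Efnb2, Ntn1 and Plxna3 did not, and none turned its sign. The array number and the missing detection calls limit every fold with a value at or below the floor.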

Other observations

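Guidance molecules outside these families read lower in TRAP as well. All 20 measured genes of a list of other guidance ligands and receptors had a difference below 0. Across all genes 8175 of 19503 did, and 5352 of the 9734 with a mean level above the floor. In 10 of the 20 listed genes the unbound value was higher by 2-fold or more, and in none the TRAP value. By comparison, 10.0% of all measured genes and 18.6% of those above the floor were called in unbound, and 19 of the 20 were above the floor. With the array medians subtracted 14 of the 20 were below 0 and 8 at least 2-fold higher in unbound, and after quantile normalization 17 and 9. The like counts over all 19503 genes, with the floor kept at 7.08, were 5267 and 1244, and after quantile normalization 8549 and 1486. Neo1, encoding the Dcc relative neogenin, read 7.47 in TRAP and 9.97 in unbound, 5.66-fold apart, and Draxin, encoding a secreted ligand of Dcc, read 6.73 and 9.22, 5.65-fold apart. In 4 of the 10 called genes, Draxin among them, 1 array lay at or below the floor, so those folds are uncertain. At the other end, Rtn4, the gene of the axon growth inhibitor Nogo, read 9.20 and 9.37, and Rgmb, a ligand of neogenin, 8.70 and 8.91; subtracting the array medians gave both a positive sign. The median over the 16 genes with a mean level above the floor was -0.97.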
